A study of Mus musculus with 6 samples.

Results

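Scavenger receptors bind modified lipoproteins, haemoglobin complexes, bacterial surfaces and cell debris, and efferocytosis receptors let a macrophage take up dying cells. The transcripts of 10 such receptors were compared between bone marrow-derived macrophages with a macrophage-specific Dhps knockout (Dhps_delta_Myel in the labels) and control macrophages, all from C57BL/6J mice. They were taken by gene symbol from the deposited count table. All 10 of the 10 listed receptors were among its 10551 genes, and all 10 passed the filter on low counts and were tested. Dhps encodes deoxyhypusine synthase, an enzyme needed to form hypusine, an amino acid found in the translation factor eIF5A. Each genotype had 3 libraries, sequenced from total RNA on an Ion Proton instrument. The driver of the deletion, the deleted exons, the age of the mice, the culture conditions and any stimulus are not named in the labels. Whether the 3 libraries of a genotype stem from different mice or cultures is not stated, and p-values therefore measure only how these libraries spread, which could be technical.

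The 10 receptors fall into 3 groups by role. Cd36, Msr1, Marco, Cd163, Mrc1 and Stab1 encode scavenger receptors of several structural classes. CD36 takes up oxidised lipoproteins and fatty acids, MSR1 and MARCO are trimeric receptors with a collagen-like stalk, and CD163 takes up haemoglobin. MRC1 is the mannose receptor (CD206), and stabilin-1, the product of Stab1, binds phosphatidylserine, modified lipoproteins and matrix fragments. Trem2, Mertk and Axl encode receptors for lipids and dying cells. MERTK and AXL are receptor tyrosine kinases that recognise phosphatidylserine through bridging proteins (GAS6 for both, and protein S for MERTK). TREM2 signals through the adaptor encoded by Tyrobp. Clec7a encodes dectin-1, the receptor for fungal beta-glucan, which signals through the kinase SYK.

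Total counts per library lay between 12960793 and 16224818 in the knockout and between 11648710 and 15382816 in the control libraries. Values below are CPM, the counts of a gene scaled to library size with trimmed-mean factors. Dhps itself was at 13.2, 13.6 and 18.3 CPM in the knockout libraries, against 24.1, 20.9 and 23.4 CPM in the control libraries. The genotypes did not overlap, with the knockout values lower, as for 5.45% of all genes. The difference did not pass the test over all genes (log2 fold change -0.59, SE 0.14, edgeR adjusted p = 0.214). The macrophage genes Adgre1 (1338 and 1512 CPM in knockout and control libraries), Csf1r (1003 and 1093 CPM) and Itgam (1120.1 and 1110.5 CPM) were abundant in both groups. Lyz2, the lysozyme gene, fell, with 8060.2, 9462 and 8774 CPM in knockout and 16267, 19080.0 and 18770.0 CPM in control libraries (a log2 difference of -1.04, adjusted p = 7.24e-05).

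The promoters of Cd163, Stab1 and Mrc1 are shown because the first 2 have the smallest p-values among the receptors and the third holds the most copies of the searched PU.1 motif. PU.1 is a transcription factor of the myeloid lineage. The sequences are RefSeq windows (GRCm38.p6) of 250 bases before to 50 bases after the annotated start, printed on the strand of the gene. Capitals mark the letters GAGGAA, the core of a PU.1 site, or its reverse complement. The windows lie at chr6:124304401-124304700 (plus strand, Cd163), chr14:31168592-31168891 (minus strand, Stab1) and chr2:14229164-14229463 (plus strand, Mrc1).
Cd163: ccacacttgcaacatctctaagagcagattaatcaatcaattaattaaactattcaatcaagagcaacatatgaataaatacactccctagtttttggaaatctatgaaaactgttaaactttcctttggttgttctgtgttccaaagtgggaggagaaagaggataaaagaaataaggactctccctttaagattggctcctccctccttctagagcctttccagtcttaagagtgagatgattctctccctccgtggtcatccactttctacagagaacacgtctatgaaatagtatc
Stab1: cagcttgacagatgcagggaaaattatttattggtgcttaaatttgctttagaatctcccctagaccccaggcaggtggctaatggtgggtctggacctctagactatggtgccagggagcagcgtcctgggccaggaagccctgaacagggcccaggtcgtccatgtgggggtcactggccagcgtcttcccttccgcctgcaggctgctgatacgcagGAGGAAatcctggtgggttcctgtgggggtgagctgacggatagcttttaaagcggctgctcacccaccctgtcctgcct
Mrc1: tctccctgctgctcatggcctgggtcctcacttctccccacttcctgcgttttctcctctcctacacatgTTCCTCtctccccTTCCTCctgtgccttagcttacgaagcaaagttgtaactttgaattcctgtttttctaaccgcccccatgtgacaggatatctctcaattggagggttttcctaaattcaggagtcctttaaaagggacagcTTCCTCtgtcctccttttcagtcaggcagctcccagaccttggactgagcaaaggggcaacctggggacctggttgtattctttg
RefSeq windows were found for 9 of the 10 receptors, all but Msr1. GAGGAA on either strand occurred in 6 of these 9 (Axl, Clec7a, Marco, Mrc1, Stab1 and Trem2), in 28.3% of all 32851 promoter windows of this length and in 27.5% of the 10331 of measured genes. In Stab1 it lies 30 bases before the start, and Mrc1 has 3 copies on the opposite strand. No copy occurs in the Cd163 window. The half-site of MAF factors, TGCTGAC, was in 0 of the 9, in 4.67% of all windows and in 3.76% of those of measured genes. TATAAA was in 1 of the 9 (Clec7a), in 13.6% of all windows and in 6.78% of those of measured genes. The 3 motifs share no letters by overlap in these 9 windows, and each match is a run of letters and no measured binding.

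No receptor passed the test between knockout and control macrophages. Of all 10551 genes, 11 passed at an adjusted p under 0.05, which is 0.104% (0.0948% higher and 0.00948% lower in knockout libraries), and a count of 0 among 10 is near that share. At an unadjusted p under 0.05 there were 2 receptors, Cd163 and Stab1, where the share over all genes was 6.48%. With DESeq2 1 receptor passed, Cd163, where 0.209% of all genes tested did, and with limma-voom 0 passed. Cd163 was listed through its knockout libraries only, so its p-values have no like baseline in all genes (below). The log2 fold change was above 0 for 7 receptors and below 0 for 3. Its median was 0.048 over the receptors and -0.0044 over all genes. For 8 of the 10 the 95% interval lay within a 1.5-fold difference in either direction, the exceptions being Cd163 and Axl. In bulk RNA, a receptor carried by fewer cells and less of its RNA per cell cannot be told apart.

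**Figure D1:**
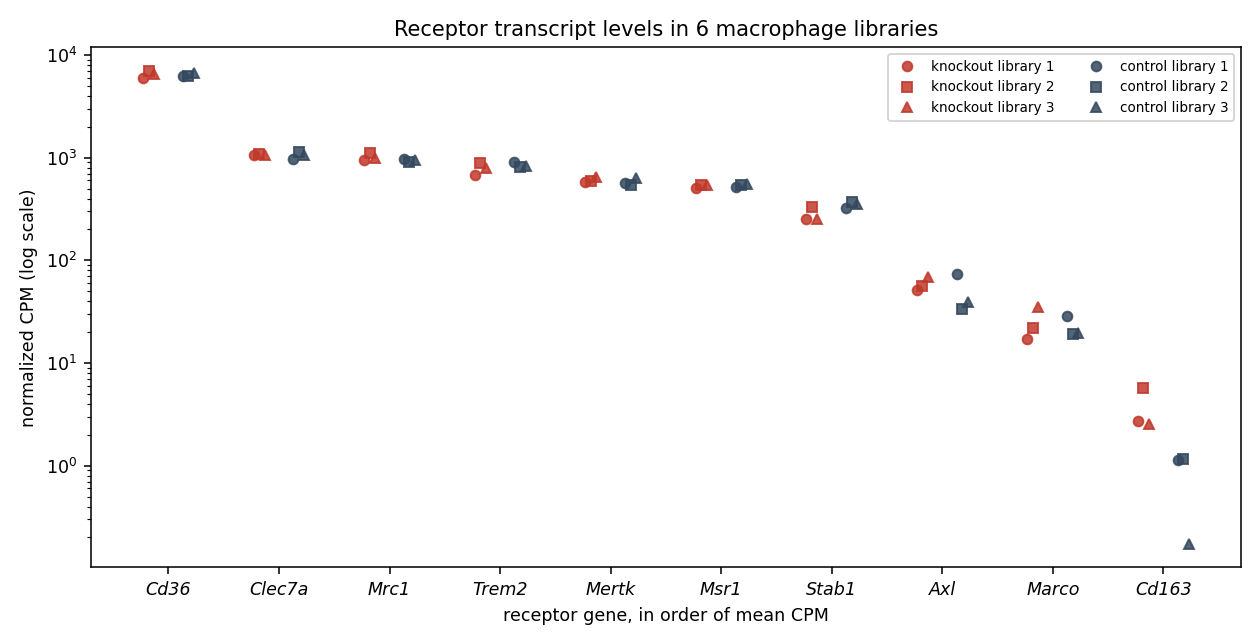
Transcript level of each receptor gene (normalized CPM, log axis) in the 3 knockout (red) and 3 control (blue) libraries, 1 symbol per library, genes ordered by mean CPM. Levels run from 6987 CPM for Cd36 in 1 knockout library down to 0.174 CPM for Cd163 in 1 control library, and Cd163 is the gene whose groups do not overlap.

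The receptors differed far more from each other than between genotypes. Together they took 1.03% to 1.16% of the counts of the knockout libraries and 1.03% to 1.10% of those of the control libraries. Cd36 alone made up 59.2% to 60.1% of the receptor counts in knockout and 58.6% to 60.0% in control libraries, and was rank 13 of all genes by CPM. Scaled by exon length, Cd36 came first, with a level of 1653 ± 128 CPM per kilobase in knockout and 1618 ± 71.0 in control libraries (SD, n = 3 each). Trem2 followed at 686 ± 86.6 and 742 ± 49.4 CPM per kilobase, then Clec7a at 471 ± 6.89 and 463 ± 33.4, on the same scale and in the same order of groups. Mrc1 (192 and 178 CPM per kilobase) and Mertk (171 and 163) were neighbours whose libraries overlapped in both genotypes. Below them lay Msr1 (133 and 135) and Stab1 (35.0 and 43.8). Marco (12.4 and 11.3 CPM per kilobase) and Axl (11.6 and 9.55) again overlapped in both genotypes, and Cd163 was lowest at 0.815 and 0.184. All other neighbours in this order were separated in every library of both genotypes. The order was therefore the same in knockout and control macrophages, except within these overlapping pairs, where it could not be set.

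Cd163 had the largest difference among the receptors. It was at 2.75, 5.66 and 2.57 CPM in the knockout libraries, against 1.14, 1.16 and 0.174 CPM in the control libraries. Every knockout library lay above every control library, and knockout library 2 and control library 3 were the extremes. The log2 fold change was 2.06 (SE 0.45, 95% interval 1.11 to 3.01), a 4.18-fold difference, with an unadjusted p = 2.84e-04 that ranked 21st of all genes. Over all genes it passed neither in the edgeR test (Benjamini-Hochberg adjusted p = 0.142) nor in limma-voom (adjusted p = 0.223), but it did in DESeq2 (log2 fold change 2.11, adjusted p = 0.00843). Groups that do not overlap were found for 1 of the 10 receptors and for 11.2% of all genes (5.73% with the knockout values higher and 5.45% with them lower). For Cd163 neither this share, the rank nor these p-values have a like baseline in all genes. The reason is how it came to be listed (next paragraph).

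These Cd163 values rest on few reads. The counts were 40, 73 and 42 in the knockout and 16, 18 and 2 in the control libraries, 155 against 36 in all, with exact 95% Poisson intervals of 132 to 181 and 25.2 to 49.8 that cover counting error only. Its level was above 1 CPM in 5 libraries, all of the knockout group and 2 of the control group. The smallest third-highest value of any gene in the table was 1.003 CPM, so that a gene needed 3 libraries above about 1 CPM to be listed. Cd163 is 1 of 258 genes above 1 CPM in every library of the knockout group only. For the control group only there were 122 such genes. Among genes listed in this way the limit favoured high knockout values. Among the 2323 genes with a mean below 5 CPM, 4 had a log2 fold change at least as high as that of Cd163, itself included, and 0 had one as far below 0. The same limit shaped this set, so these counts are no test of Cd163. Leaving out 1 library in turn gave log2 fold changes between 1.62 (without knockout library 2) and 2.38 (without control library 2), and edgeR adjusted p-values between 0.082 and 0.641, so that no such fit passed. In mm10, Cd163 spans chr6:124304651-124330527 on the plus strand.

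Other transcripts of macrophages resident in tissues, for which CD163 is a common marker, were compared from a list of 20 further genes, of which 13 were measured. Of these 1 rose, Ccl8, a chemokine gene, and 12 did not pass, where 0.0948% of all genes rose. Ccl8 had 79.8, 88.0 and 78.0 CPM in the knockout libraries, against 52.9, 53.2 and 57.0 CPM in the control libraries (a log2 difference of 0.59, SE 0.094, adjusted p = 0.012). It did not pass without control library 2 (adjusted p = 0.133) or without knockout library 2 (adjusted p = 0.137). Siglec1, the sialic acid receptor CD169, had the next smallest p and pointed the other way, with 106, 123 and 124 CPM in knockout libraries and 204, 127 and 145 CPM in control libraries (a log2 difference of -0.43, adjusted p = 0.495). The median log2 fold change of the 13 genes was 0.10.

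Markers of other cell types were read beside Cd163 and Ccl8. Of 18 listed markers of neutrophils and their precursors 13 were measured and 5 rose (Ngp, S100a8, S100a9, Ltf and Lcn2), where 0.0948% of all genes did, and the summed level of the 13 was 1354 to 1595 CPM in knockout and 845 to 1170 CPM in control libraries. The mast cell and basophil list had 5 of 13 markers measured, which summed to 18.8 to 27.2 CPM in knockout and 14.3 to 18.5 CPM in control libraries. Of 14 monocyte markers 12 were measured and 0 passed, with 6 higher and 0 lower in knockout libraries at an unadjusted p under 0.05 (6.48% of all genes in either direction) and a median log2 fold change of 0.41. Plac8 had the smallest p of them (0.86, adjusted p = 0.216). Their sum, to which Fn1, F10 and Vcan gave most, was 1099 to 1365 CPM in knockout and 1160 to 1395 CPM in control libraries. Of 13 megakaryocyte and platelet markers 9 were measured and 0 passed. At an unadjusted p under 0.05, 5 were higher (Ppbp, Itga2b, Gp9, Gp5 and Tubb1) and 1 lower (Pf4), against 6.48% of all genes in either direction. Of these 9, 5 reached the 1 CPM limit of the table through the knockout libraries only, and the median log2 fold change was 0.64. The sum, which was mostly Pf4, was 1274 to 1402 CPM in knockout and 1500.5 to 1799 CPM in control libraries. The stromal list had 9 of 19 measured, and Col1a2 (2.76 CPM in knockout and 0.393 CPM in control libraries) and Sparc (2.89 and 0.582 CPM) passed as higher in knockout libraries. Both reached the limit of the table through the knockout libraries only, so that they had to differ to be listed. The stromal sum was mostly Vcam1 (log2 fold change -0.18, adjusted p = 0.894) and was 351 to 480.0 CPM in knockout and 403 to 571 CPM in control libraries. Of the 6 fits that leave out a library, Col1a2 passed in 2 and Sparc in 1. For T and NK cells only Cd4 of 12 markers was measured, at 2.27, 1.94 and 2.39 CPM in knockout and 1.07, 0.771 and 0.348 CPM in control libraries (adjusted p = 0.255), and it too was listed through the knockout libraries only. In the dendritic cell, endothelial, adipocyte, B cell and erythroid lists 0 markers passed. None of the measured markers had a count of 0 in any library, and the other listed markers were not among the genes of the table. The part of such cells in the Cd163 and Ccl8 values was not tested.

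**Figure D2:**
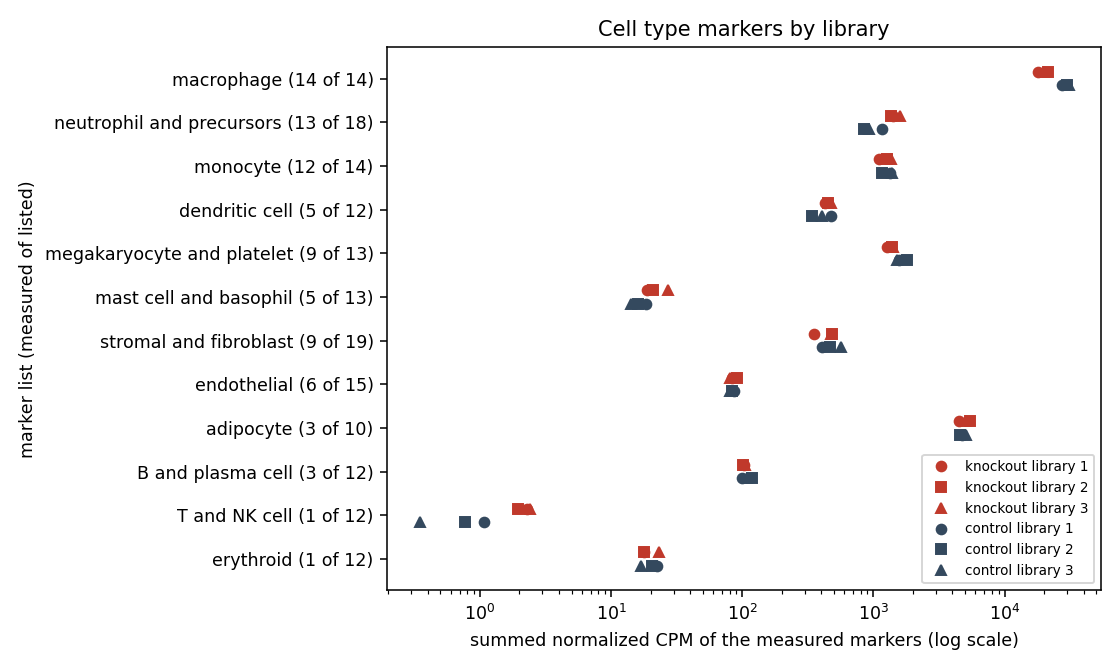
Summed normalized CPM of the measured markers of 12 cell types (log axis) in the knockout (red) and control (blue) libraries, 1 symbol per library, with the number measured of those listed. Neutrophil markers lie at 1354 to 1595 CPM in knockout and 845 to 1170 CPM in control libraries, and the macrophage sum, which holds Lyz2, at 18118 to 21494 CPM in knockout and 27548 to 30805 CPM in control libraries.

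Stab1 had the second smallest p. It was at 255, 329 and 255 CPM in the knockout libraries, against 322, 372 and 357 CPM in the control libraries. Knockout library 2 lay just above control library 1, so that the groups overlapped. The log2 fold change was -0.33 (SE 0.10, 95% interval -0.55 to -0.11) with an unadjusted p = 0.00636, and it did not pass over all genes (adjusted p = 0.501, and 0.381 with DESeq2). With 1 library left out it lay between -0.46 and -0.26, below 0 each time. Stab1 spans chr14:31139017-31168641 on the minus strand in mm10, and 108 bases of its exons are also exonic in Nt5dc2 on the opposite strand, whose own log2 fold change was -0.051 (adjusted p = 0.983). The use of strand in counting was not given, so reads from that stretch could belong to either gene. Stab2, which encodes the related stabilin-2, was at 22.5, 17.6 and 16.5 CPM in knockout and 21.3, 23.3 and 21.5 CPM in control libraries, with a log2 fold change of -0.23 that did not pass (adjusted p = 0.850).

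The 4 other scavenger receptors showed no difference that passed. Cd36 (chr5:17781690-17888959, minus strand, mm10) was at 5978, 6987 and 6506 CPM in the knockout libraries, against 6184, 6205 and 6677 CPM in the control libraries. The groups overlapped almost fully, with a log2 fold change of 0.030 (95% interval -0.16 to 0.22, adjusted p = 0.990). Msr1 (chr8:39581700-39642678, minus strand) had 508, 547 and 537 CPM in the knockout and 521, 540 and 559 CPM in the control libraries, the smallest spread in percent over the control libraries among the receptors (3.45%). Its log2 fold change was -0.026 (95% interval -0.20 to 0.15, adjusted p = 0.990). Mrc1 (chr2:14229414-14332023, plus strand) had 946, 1119 and 1000.4 CPM in the knockout and 977, 910 and 951 CPM in the control libraries, with knockout library 1 below both the first and the third control library (log2 fold change 0.11, 95% interval -0.075 to 0.30, adjusted p = 0.906). Marco (chr1:120474538-120505084, minus strand) had 17.0, 21.9 and 34.9 CPM in the knockout and 28.4, 19.2 and 19.4 CPM in the control libraries. The control values lay within the range of the knockout values, and the log2 fold change of 0.14 (95% interval -0.30 to 0.58, adjusted p = 0.961) went to -0.20 without knockout library 3.

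**Figure D3:**
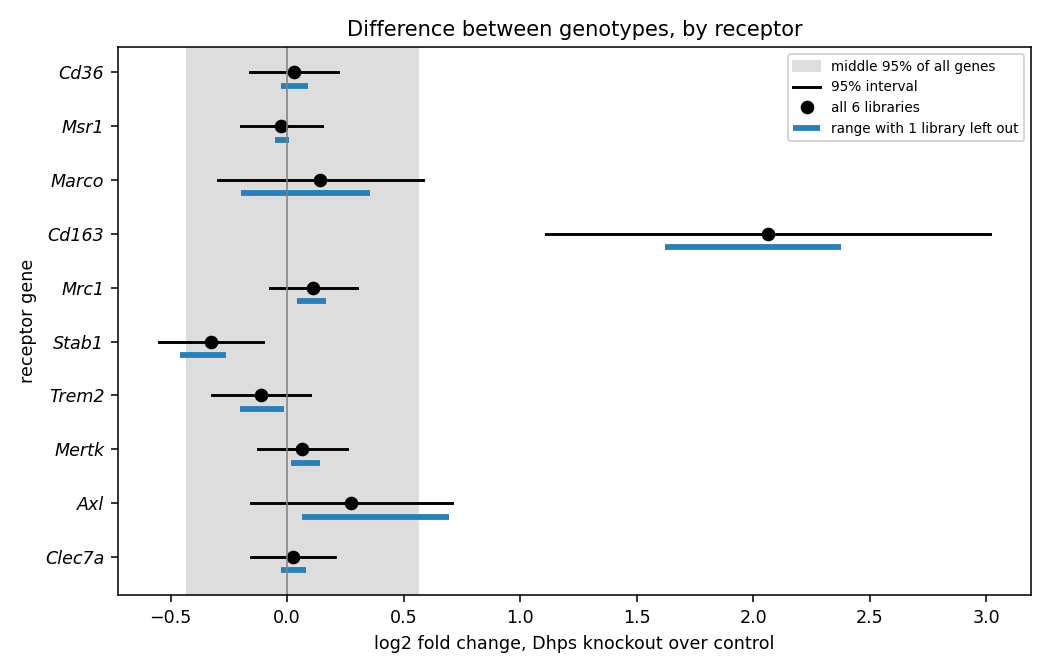
Log2 fold change of each receptor, Dhps knockout over control (black point), with its 95% interval from edgeR's fit (black line), the range with 1 library left out (blue) and the middle 95% of all genes (grey, -0.43 to 0.56). Only the Cd163 interval lies wholly outside the grey band, and the Stab1 interval (-0.55 to -0.11) leaves out 0 but stays mostly within it.

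Among the efferocytosis receptors, Axl (chr7:25756500-25788733, minus strand, mm10) depended on 1 library. It was at 50.9, 56.3 and 69.0 CPM in the knockout libraries, against 72.8, 33.4 and 39.5 CPM in the control libraries. Control library 1 lay above all knockout libraries and the other control libraries lay below all of them. The log2 fold change was 0.28 (SE 0.20, 95% interval -0.16 to 0.71, adjusted p = 0.896) with all libraries, and 0.69 (adjusted p = 0.040) without control library 1. It was 0.065 without control library 2. Mertk (chr2:128698997-128802188, plus strand) had 585, 593 and 642 CPM in the knockout and 562, 538 and 639 CPM in the control libraries (a log2 difference of 0.066, 95% interval -0.12 to 0.26, adjusted p = 0.961). Trem2 (chr17:48346401-48352276, plus strand) had 682, 880 and 798 CPM in the knockout and 915, 810 and 826 CPM in the control libraries, with a log2 fold change of -0.11 (95% interval -0.32 to 0.097, adjusted p = 0.910). Both genes overlapped between the groups. The third kinase of the Axl and Mertk family, Tyro3, was close to the lowest levels in the table, at 2.75, 3.25 and 2.21 CPM in knockout and 3.86, 3.54 and 2.52 CPM in control libraries (adjusted p = 0.917).

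Clec7a (chr6:129461591-129472779, minus strand, mm10) was the steadiest receptor in the knockout libraries, at 1068, 1092 and 1062 CPM (a coefficient of variation of 1.46%), against 976, 1128 and 1061 CPM in the control libraries. Its log2 fold change was 0.025 (95% interval -0.15 to 0.21, adjusted p = 0.990). Of 21 other C-type lectin receptors, 17 were measured and none rose or fell by the edgeR test, with a median log2 fold change of -0.045. At an unadjusted p under 0.05 there was 1 gene, against 6.48% of all genes. That gene was Clec2d, at 255, 262 and 305 CPM in knockout and 310.0, 315 and 314 CPM in control libraries (a log2 difference of -0.19, adjusted p = 0.749). Clec4e, which encodes the glycolipid receptor Mincle, came next (-0.21, adjusted p = 0.848).

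**Figure D4:**
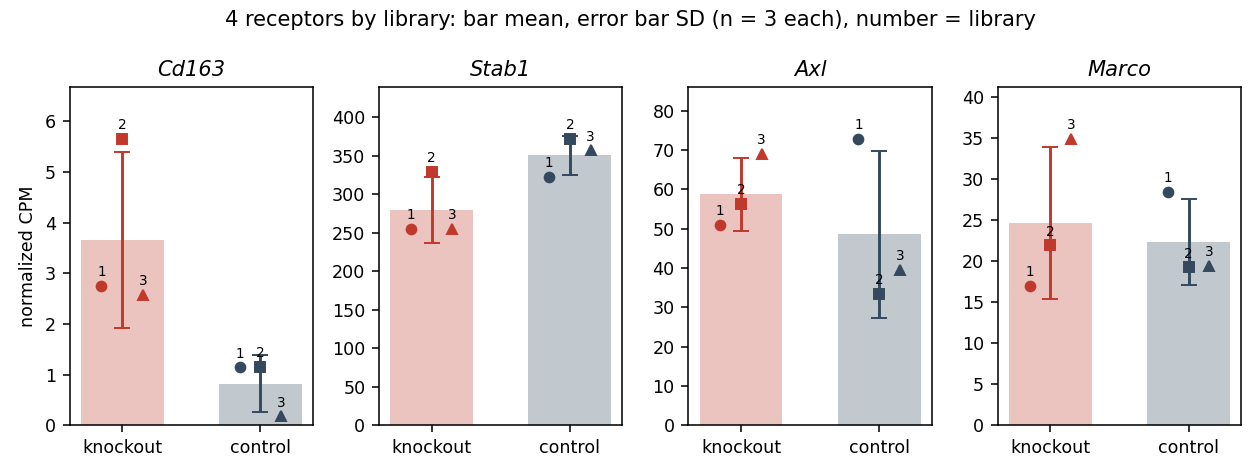
Normalized CPM of Cd163, Stab1, Axl and Marco in each library (numbered symbols) with the mean (bar) and SD (error bar, n = 3 each), knockout left of control. Axl is highest in control library 1 and knockout library 3, and so is Marco, while the Cd163 groups are apart.

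Libraries of 1 genotype differed across the receptors together. Knockout library 1 was the lowest of its group for 8 of the 10 receptors, which it was for 36.5% of all genes, and knockout library 2 was the highest for 7 of 10, against 31.9% of all genes. The macrophage markers other than Lyz2 followed the same order, with sums of 10058, 12032 and 11284 CPM in knockout libraries 1, 2 and 3 and 11281, 10792 and 12036 CPM in control libraries. In the control group no library was lowest for more than 5 receptors or highest for more than 4. Whether this sets the levels of the receptors was not tested. Within the knockout group, Cd36, Msr1, Mrc1, Stab1, Trem2, Cd163 and Clec7a had their highest value in library 2, and Marco, Mertk and Axl in library 3.

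The bridging proteins and partners of these receptors gave few differences. Gas6, the ligand of AXL and MERTK, was at 204, 181 and 159 CPM in knockout and 189, 216 and 172 CPM in control libraries, and Pros1, which encodes protein S, at 41.1, 47.8 and 43.4 CPM and 43.0, 44.5 and 42.9 CPM. Mfge8, which bridges phosphatidylserine to integrins, was at 2207, 2254 and 2028 CPM in knockout and 2121, 1538 and 1460.4 CPM in control libraries. As for Axl, control library 1 stood with the knockout libraries, and the log2 fold change of Mfge8 was 0.34 (SE 0.12, adjusted p = 0.577) with all libraries and 0.53 (adjusted p = 0.018) without control library 1. Itgb3, the beta-3 integrin chain that binds MFGE8 together with the alpha-v chain, was at 42.2, 34.8 and 34.0 CPM in knockout and 31.7, 17.6 and 24.3 CPM in control libraries (a log2 difference of 0.60, SE 0.16, adjusted p = 0.362). It passed without control library 1 (0.83, adjusted p = 0.021). Its partner Itgav (-0.13, adjusted p = 0.910) and Itgb5 (-0.027, adjusted p = 0.990) did not pass.

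Without control library 1, 19 genes passed over the whole table in place of 11, and in the related lists 5 in place of 2. These were Ccl8, Lcn2, Itgb3, Timp3 and Mfge8, all higher in the knockout libraries. Control library 1 also had the highest Siglec1 and Marco values and the highest summed neutrophil markers of the control group (1170 CPM). The part of that library in these values, beyond leaving it out, was not tested.

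The 3 chains of complement C1q, which tag dying cells for uptake, each had all knockout values below all control values, as did 5.45% of all genes. C1qc was at 504, 584 and 501 CPM in knockout and 643, 655 and 698 CPM in control libraries (a log2 difference of -0.33, SE 0.089, adjusted p = 0.343). C1qa was at 192, 197 and 192 CPM and 241, 236 and 231 CPM (-0.28, SE 0.081, adjusted p = 0.406), and C1qb stood at -0.25 (adjusted p = 0.588). None of the 17 measured genes of 18 bridging molecules and find-me receptors passed, with a median log2 fold change of 0.0047. At an unadjusted p under 0.05, 2 were higher and 3 lower, against 6.48% of all genes in either direction.

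Of 20 other scavenger receptors 13 were measured and 0 passed in edgeR, with 2 at an unadjusted p under 0.05 (6.48% of all genes). Olr1, which encodes LOX-1, a receptor for oxidised lipoprotein, was at 892, 805 and 744 CPM in knockout and 820.4, 573 and 653 CPM in control libraries (a log2 difference of 0.25, adjusted p = 0.749), and the groups overlapped. Of 12 other receptors for phosphatidylserine 10 were measured and 0 passed, with Itgb3 and then Cd300lf (0.21, adjusted p = 0.904) having the smallest p.

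No gene of signalling or digestion after uptake passed. Of 29 genes of engulfment signalling 28 were measured and 0 passed, with a median log2 fold change of -0.022. Tyrobp was at 929, 922 and 910.1 CPM in knockout and 907, 839 and 1054 CPM in control libraries, and Syk at 1302, 1280 and 1346 CPM and 1326, 1279 and 1405 CPM. Their log2 fold changes were -0.020 and -0.030 (adjusted p = 0.992 and 0.987). The adaptor gene Card9, which acts below dectin-1 and SYK, averaged 10.4 CPM in knockout and 12.5 CPM in control libraries (log2 fold change -0.26, adjusted p = 0.836). Wipf1 (0.35, adjusted p = 0.545) and Wasf2 (0.25, adjusted p = 0.707), which encode regulators of actin branching, had the smallest p of this list.

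Of 24 genes of phagosome digestion 22 were measured and 0 passed. Rab7, the small GTPase of late endosomes, was at 305, 273 and 291 CPM in knockout and 239, 232 and 243 CPM in control libraries, with every knockout library above every control library (log2 fold change 0.28, SE 0.084, adjusted p = 0.414). Lamp2, a lysosomal membrane protein gene, stood at 0.16 (adjusted p = 0.865). Of 22 genes of lipid handling 21 were measured and 0 passed, led by Cd9 (0.21, adjusted p = 0.836) and Scd2 (0.25, adjusted p = 0.861). An unadjusted p under 0.05 was found for 0 of them and for 6.48% of all genes.

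Several of these receptors are cut from the cell surface by metalloproteinases, ADAM10 and ADAM17 among them, and TIMP3 inhibits ADAM17. All 17 genes of the shedding list were measured and 0 passed. Timp3 came closest, at 5.36, 6.59 and 5.09 CPM in knockout and 2.93, 1.93 and 1.83 CPM in control libraries (a log2 difference of 1.34, SE 0.25, adjusted p = 0.052, and 0.00591 with DESeq2). It lay just under the threshold with RLE size factors (adjusted p = 0.0499) and the stricter filter (0.0482), under it without size factors (0.0349) and without control library 1 (log2 fold change 1.58, adjusted p = 0.021), and over it with limma-voom (0.0863) and without any other single library (up to 0.405). Adam10 was at 161, 194 and 165 CPM in knockout and 144, 158 and 165 CPM in control libraries, and Adam17 at 215, 254 and 252 CPM and 261, 242 and 285 CPM, with log2 fold changes of 0.15 and -0.13 (adjusted p = 0.865 and 0.894). Psen2, a catalytic subunit gene of gamma-secretase, stood at -0.26 (adjusted p = 0.627).

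**Figure D5:**
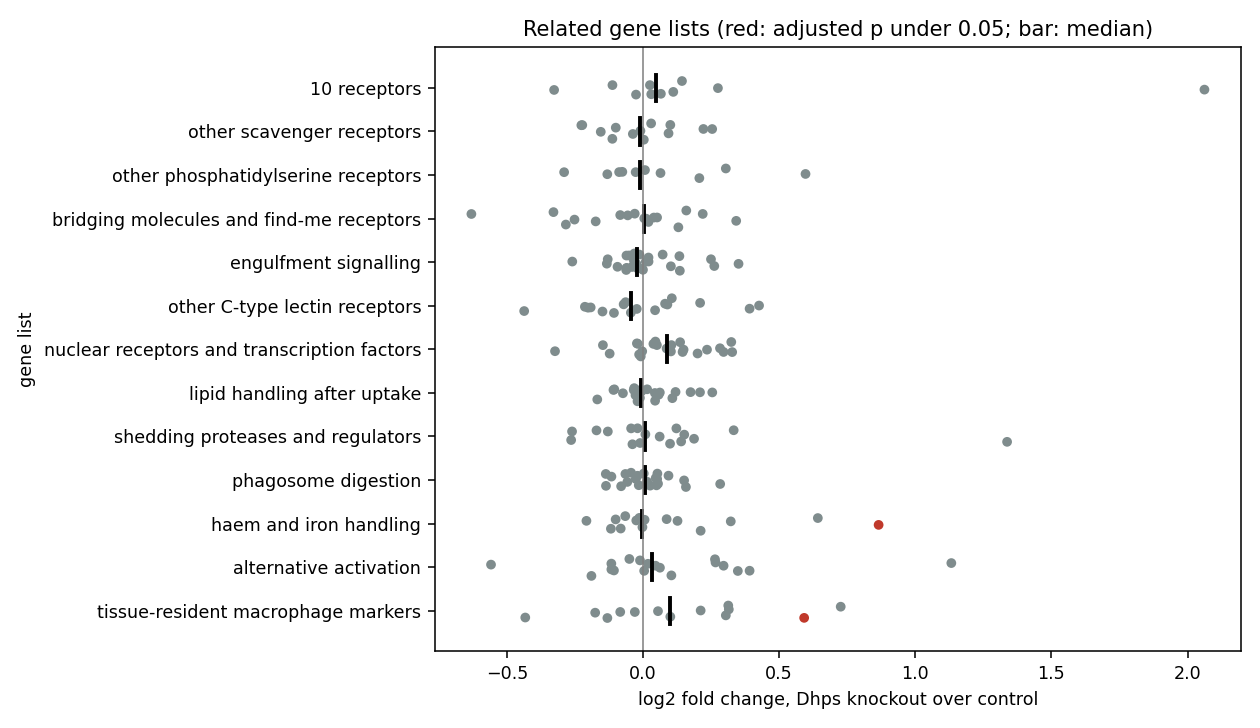
Log2 fold change (Dhps knockout over control) of each measured gene in 12 related lists and of the 10 receptors, 1 point per gene, with the median of the list (bar); red points passed at an adjusted p under 0.05. The red points are Lcn2 and Ccl8, and the list medians lie between -0.045 and 0.10.

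Nuclear receptors and transcription factors that act on receptor genes in macrophages had 23 of 24 members measured and 0 that passed, with a median log2 fold change of 0.087. Bhlhe40 was at 47.0, 45.9 and 40.6 CPM in knockout and 39.4, 30.9 and 36.3 CPM in control libraries (0.33, adjusted p = 0.553), and Ppard, a fatty acid-sensing nuclear receptor gene, followed (0.30, adjusted p = 0.815). Over the 206 measured genes of the 12 related lists together, 2 rose and 0 fell, where 0.104% of all genes passed. An unadjusted p under 0.05 was found for 12.1% of the 206 and for 6.48% of all genes, and the median log2 fold change was 0.0014. Because the lists were chosen with earlier results of these data known, these shares are no test of the lists.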

How the data were processed

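The deposited table holds raw read counts per gene for 6 libraries, with exon coordinates (mm10) and a summed exon length, a value of another kind than a count that was used only to scale levels per kilobase. Per the submitters' processing notes, STAR 2.4.2a, featureCounts, Subread 1.5.0, edgeR and build mm10 were used, with no role or order given; for annotation and strand setting the entry is: not given in the sources used here. Every per-sample column was used (0 left aside). Genes were tested over the whole table in edgeR 4.0.16 under R 4.3.3 (quasi-likelihood F test), two-sided, genotype as the only term, with TMM size factors, filterByExpr at a minimum count of 10 (0 genes removed) and Benjamini-Hochberg adjustment over 10551 genes. A gene passed at an adjusted p under 0.05. The SE is the log2 fold change over the root of F. The test was checked on simulated counts. Alternatives were RLE or no size factors, no or a stricter filter (1 CPM in every library of a group), DESeq2 1.42.0, limma-voom (limma 3.58.1), the replicate number as a block, an adjusted p under 0.1 and each library left out. Receptors and lists were chosen with earlier results of these data known. Named were the receptors, Dhps, the 2 genes of each related list with the smallest p and any that passed, and the leading or passing genes of marker lists, except that some genes this rule names are not reported here. Gas6, Pros1, Mfge8, C1qb, Tyro3, Tyrobp, Syk, Card9, Adam10, Adam17, Hmox1, Fth1, Itgav, Itgb5 and Nt5dc2 were chosen after their values were seen. Promoter windows are RefSeq's (GRCm38.p6), and exon overlaps are from GENCODE on the same assembly.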

Additional observations from a re-analysis of the deposited data

How the results depend on the processing

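Across size factors, filters, limma-voom, DESeq2 and the replicate block, every receptor kept the sign of its log2 fold change, and Cd163 alone moved to the other side of the threshold. The count of genes called, 11, was 22 with DESeq2 and ranged from 4 to 19 with 1 library left out. The count of receptors called, 0, was 1 with DESeq2 (Cd163) and ranged from 0 to 1 with 1 library left out (Axl without control library 1). The count in the related lists, 2, ranged from 1 to 5 with 1 library left out. With the replicate number as a block, 35 genes were called, 1 of them a receptor (Cd163, 2.14, adjusted p = 0.0104) and 5 in the related lists (Timp3 among them, adjusted p = 0.0142). Same-numbered libraries had correlations of their deviations of 0.175, 0.021 and 0.167, and differently numbered ones of -0.234 to 0.101. Knockout library 2 correlated best with control library 3. The labels name no pairs and these values do not decide whether the numbers mark pairs. The main test left the block out. Cd163 also passed in DESeq2 without a block, so whether it passes depends on the model chosen. Cd163 was listed through the knockout libraries only, and no such pass is free of that limit. With 1 library left out, log2 fold changes changed sign for Cd36 (-0.026 to 0.091), Msr1 (-0.050 to 0.0097), Marco (-0.20 to 0.36) and Clec7a (-0.028 to 0.080), and among other genes for Gas6 (-0.17 to 0.012), Pros1 (-0.041 to 0.072), Tyrobp (-0.087 to 0.076), Syk (-0.057 to 0.0075), Itgav (-0.25 to 0.0034), Itgb5 (-0.092 to 0.067), Car2 (-0.17 to 0.052), Eng (-0.054 to 0.10), Lpl (-0.0099 to 0.14) and Bst2 (-0.28 to 0.0020). Without size factors Tyrobp was at 0.00532. Depth limits Cd163 in particular, with 2 to 18 counts per control library. The causes were not tested.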

Other observations

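Haem and iron handling lies downstream of CD163, and of its 18 listed genes 15 were measured. Lcn2, which encodes a siderophore-binding protein that is also a neutrophil granule product, rose, with 41.0, 43.3 and 51.1 CPM in knockout and 25.8, 22.2 and 26.5 CPM in control libraries (a log2 difference of 0.87, SE 0.12, edgeR adjusted p = 0.0026), and all 6 fits that leave out a library also call it. The other 14 did not pass, where 0.0948% of all genes passed as higher. At an unadjusted p under 0.05, 4 of the 15 were higher and 0 lower in knockout libraries (6.48% of all genes in either direction). Hp, which encodes the haemoglobin-binding protein haptoglobin, was at 14.2, 19.1 and 20.0 CPM in knockout and 13.6, 11.0 and 9.48 CPM in control libraries (0.64, SE 0.16, adjusted p = 0.290). Hmox1, the haem-degrading oxygenase gene, was at 264, 228 and 204 CPM in knockout and 207, 195 and 198 CPM in control libraries (0.21, adjusted p = 0.749), so that 1 control library lay above the lowest knockout library. Fth1, the remaining gene of these 4, was at 13144, 9925 and 9780 CPM in knockout and 8274, 9525 and 8471 CPM in control libraries (0.32, SE 0.11, adjusted p = 0.581). Lcn2 and Hp are also markers of neutrophils and monocytes, whose part in these values was not tested.

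Of 19 genes of alternative activation 18 were measured and 0 passed in edgeR. At an unadjusted p under 0.05, 3 were higher and 1 lower, against 6.48% of all genes in either direction. Ccl24, a chemokine gene, was at 16.1, 24.9 and 24.3 CPM in knockout and 22.0, 39.4 and 34.7 CPM in control libraries (-0.56, SE 0.19, adjusted p = 0.547). Cd200r1, an inhibitory receptor gene, was at 51.4, 54.1 and 51.3 CPM in knockout and 40.0, 44.2 and 46.2 CPM in control libraries (0.27, adjusted p = 0.611). The mannose receptor gene Mrc1, often read as a mark of this state, had the log2 fold change of 0.11 given above.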
